A study of Homo sapiens with 8 samples.

Results

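The expression of 10 genes of the Notch pathway was followed in MCF10A and DCIS.COM cells with and without ectopic *MALINC1*. They comprise the receptors *NOTCH1*, *NOTCH2* and *NOTCH3*, the ligands *JAG1*, *JAG2* and *DLL1*, the modulators *LFNG* and *NUMB*, and the target genes *HES1* and *HEY1*. Genes were taken by symbol from the table of normalized expression, and all 10 had a row among its 13842 genes. MCF10A is a non-tumorigenic breast epithelial cell line, and DCIS.COM is a line of the same MCF10 lineage that models ductal carcinoma in situ. Each line was stably transduced with pLOC-*MALINC1*, which expresses the long noncoding RNA *MALINC1*, or with the control vector pLOC-empty. RNA-seq gave 2 libraries for each of the 4 groups, 8 in all. All groups share the pLOC backbone and selection with blasticidin, and RNA came from subconfluent plates. MCF10A was grown in DMEM/F-12 with horse serum, epidermal growth factor, hydrocortisone, insulin and cholera toxin, and DCIS.COM in the same base medium with horse serum, so cell line and medium cannot be told apart. The labels do not say whether the 2 libraries of a group come from separate cultures or transductions. The p-values therefore measure only the spread between these libraries. An effect of the vector and a difference between the selected cell populations cannot be told apart.

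Notch receptors are cell-surface proteins activated by ligands on neighbouring cells. Binding to a Jagged or Delta-like ligand leads to cleavage first by an ADAM protease and then by gamma-secretase, which frees the intracellular domain. This domain enters the nucleus, joins the DNA-binding protein RBPJ and coactivators of the Mastermind family, and switches on genes such as *HES1* and *HEY1*, which encode transcriptional repressors. Fringe glycosyltransferases such as LFNG modify the receptors and alter which ligands they answer to, and NUMB is an endocytic adaptor known to antagonize Notch. In the mammary gland the pathway is known for its part in luminal cell fate.

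The libraries held between 20604377 and 37550457 reads counted on genes. Values are CPM (reads of a gene per 1000000 reads of the normalized library), recovered from the deposited log2 values by removing the prior count, and 1 read was worth between 0.0279 and 0.0477 CPM. Groups with at most 3 reads of a gene in each of their libraries are called at the floor for it. *MALINC1* itself had a mean of 1.25 CPM with pLOC-empty in both lines, against 12.5 CPM with pLOC-*MALINC1* in MCF10A and 21.8 CPM in DCIS.COM. All 8 markers of basal mammary epithelium had a mean over 1 CPM in every group, among them *KRT5* and *TP63*. Of the other marker lists, 5 of 6 luminal, 1 of 5 fibroblast, 1 of 3 endothelial and 2 of 4 leukocyte genes had a row in the table. The 5 luminal genes and the fibroblast gene were also over 1 CPM in every group, while the endothelial gene was not. With pLOC-empty, the luminal *KRT8* and the basal *KRT5* had means of 813 and 6149 CPM in MCF10A. In DCIS.COM these means were 1852 and 1069 CPM.

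Promoters of 8 of the 10 genes, without *DLL1* and *HEY1*, were taken from the RefSeq promoter table (GRCh38.p14). They had 9 start sites in all because *LFNG* has a pair of them. They were searched on both strands, over the 250 bases before the start, for the core of the RBPJ binding motif (TGGGAA) and for the N box bound by HES proteins (CACNAG). Of the 35116 promoters in that table, 20.8% held the first motif and 32.0% the second. The 3 promoters with a match are shown because they belong to a target, a modulator and a receptor whose levels are described below, with every match in capitals. No match of one motif overlapped a match of the other.
HES1, chr3:194135898-194136147, plus strand: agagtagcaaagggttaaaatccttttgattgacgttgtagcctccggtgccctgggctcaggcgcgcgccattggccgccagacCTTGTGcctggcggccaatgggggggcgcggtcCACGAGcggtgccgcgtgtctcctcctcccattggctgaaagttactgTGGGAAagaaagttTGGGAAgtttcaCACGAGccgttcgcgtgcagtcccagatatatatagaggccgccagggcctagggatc
LFNG, second start site, chr7:2517613-2517862, plus strand: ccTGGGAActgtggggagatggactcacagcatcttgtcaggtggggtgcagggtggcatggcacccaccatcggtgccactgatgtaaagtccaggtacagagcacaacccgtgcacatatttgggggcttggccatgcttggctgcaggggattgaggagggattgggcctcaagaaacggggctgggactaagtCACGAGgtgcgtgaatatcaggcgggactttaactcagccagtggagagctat
NOTCH3, chr19:15200996-15201245, minus strand: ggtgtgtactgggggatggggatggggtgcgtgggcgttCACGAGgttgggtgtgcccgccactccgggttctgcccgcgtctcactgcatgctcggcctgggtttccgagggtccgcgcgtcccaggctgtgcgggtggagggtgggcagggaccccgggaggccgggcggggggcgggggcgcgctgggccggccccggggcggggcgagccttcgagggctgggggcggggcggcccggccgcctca
The *HES1* promoter held 2 copies of the RBPJ core, 84 and 70 bases before the start, and 3 copies of the N box, 165, 132 and 58 bases before it. In *LFNG* the second start site had 1 RBPJ core 248 bases before the start and 1 N box 53 bases before it. *NOTCH3* had 1 N box, 211 bases before its start. Neither motif occurred in these windows at the first *LFNG* start or at *NOTCH1*, *NOTCH2*, *JAG1*, *JAG2* or *NUMB*. A match of letters is a description of the sequence and not evidence of binding.

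**Figure D1:**
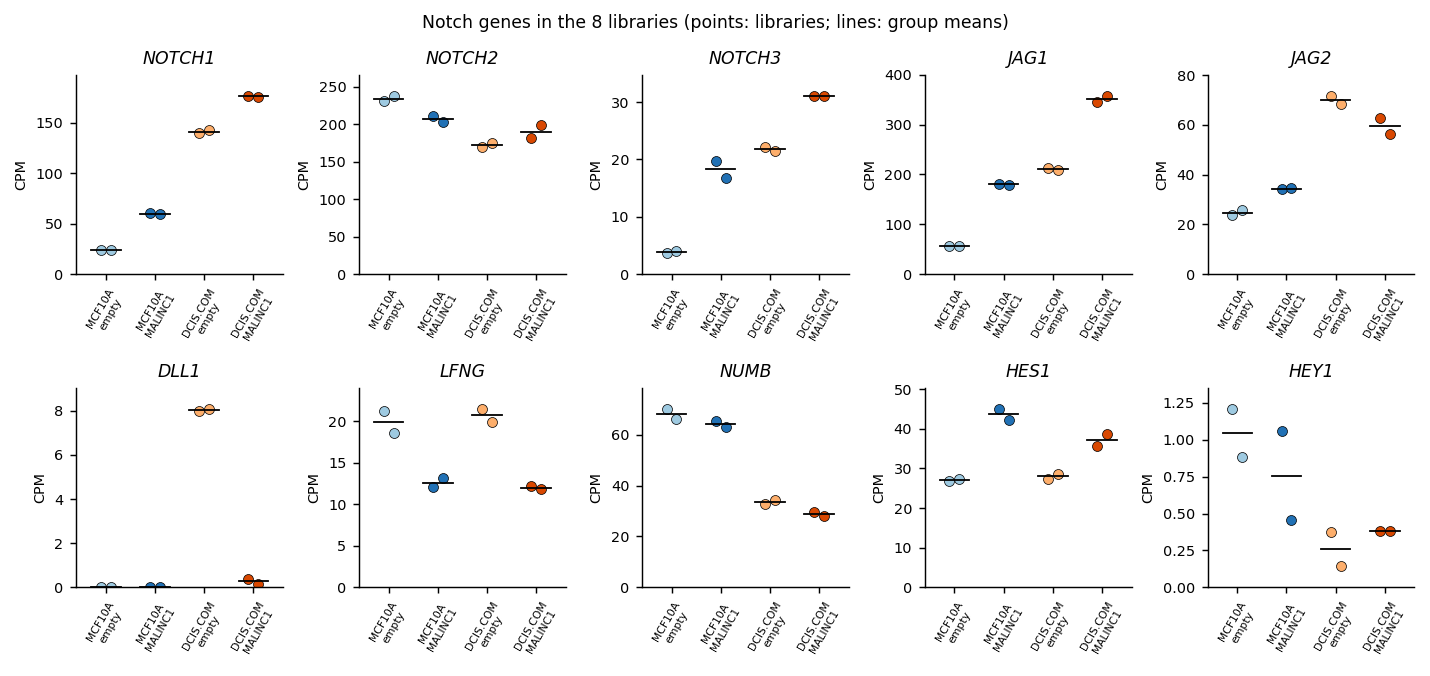
CPM (vertical axes, linear and starting at 0) of the 10 Notch genes in each library of MCF10A and DCIS.COM with pLOC-empty or pLOC-*MALINC1*. Points are libraries and lines are the means of 2 libraries. *NOTCH1*, *NOTCH3* and *JAG1* rise from left to right across the groups, while *DLL1* stands at 7.98 and 8.07 CPM in DCIS.COM with pLOC-empty alone.

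The first comparison asked how the Notch genes of MCF10A cells differed between pLOC-*MALINC1* and pLOC-empty. Of the 10 genes, 5 rose, namely *NOTCH1*, *NOTCH3*, *JAG1*, *JAG2* and *HES1*, and 2 fell, namely *NOTCH2* and *LFNG*, at an adjusted p below 0.01 (limma, Benjamini-Hochberg over all genes). At that threshold 21.5% of all genes were higher and 18.1% were lower. DEGs, which also had to change over 2-fold, were 3 of the 10 genes (*NOTCH1*, *NOTCH3* and *JAG1*) against 5.5% of all genes. The median log2 fold change was 0.195 over the 10 genes and 0.0 over all genes. The 8 basal markers summed to between 21000 and 21200 CPM with pLOC-empty and between 28400 and 29100 CPM with pLOC-*MALINC1* in this line. The 5 luminal markers summed to between 1290 and 1380 CPM and between 1560 and 1650 CPM, the control vector given first. The part of either list in these results was not tested.

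Among the receptors, *NOTCH1* (chr9:139388885-139440500, minus strand, GRCh37) had 24.1 and 24.3 CPM in the MCF10A control libraries (pLOC-empty) and 60.6 and 59.3 CPM in the pLOC-*MALINC1* libraries. The groups were far apart, with a log2 fold change of 1.30 (standard error, SE, 0.036, adjusted p = 6.93e-11), or 2.47-fold. *NOTCH3* (chr19:15269849-15311806, minus strand) rose from 3.59 and 4.07 CPM to 19.7 and 16.8 CPM, a log2 fold change of 2.23 (SE 0.092, adjusted p = 2.16e-09) and the largest of the 10 genes in this comparison. *NOTCH2* (chr1:120454176-120643366, minus strand), by contrast, had 231 and 238 CPM with pLOC-empty and 211 and 203 CPM with pLOC-*MALINC1*. It fell by 0.18 on the log2 scale (SE 0.043, adjusted p = 0.00393), a change of 1.13-fold between groups that did not overlap. That call was lost when any 1 of the 4 MCF10A libraries was left out, with adjusted p between 0.0106 and 0.0432, and over all its alternatives the adjusted p ran from 0.000744 to 0.0468. In bulk RNA, fewer cells that express a gene and less RNA per cell cannot be told apart, here and in all the following results.

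Both Jagged ligands rose in MCF10A. *JAG1* (chr20:10618332-10654647, minus strand), which encodes Jagged-1, went from 56.0 and 55.5 CPM to 181 and 179.8 CPM, a log2 fold change of 1.70 (SE 0.032, adjusted p = 1.02e-11), or 3.24-fold. Its libraries within a group differed by far less than the groups did. *JAG2* (chr14:105607319-105635161, minus strand), the gene of Jagged-2, went from 23.8 and 25.7 CPM to 34.02 and 34.8 CPM, a log2 fold change of 0.48 (SE 0.059, adjusted p = 2.81e-05). *DLL1* (chr6:170591294-170615653, minus strand), which encodes the Delta-like ligand 1, was at the floor in both MCF10A groups. It had 1 and 0 reads with pLOC-empty and 0 reads in both libraries with pLOC-*MALINC1*, so no fold is given.

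Of the modulators, *LFNG* (chr7:2552163-2568811, plus strand) fell in MCF10A, from 21.2 and 18.6 CPM to 12.1 and 13.2 CPM. The log2 fold change was -0.65 (SE 0.084, adjusted p = 3.93e-05) and the groups did not overlap. *NUMB* (chr14:73741815-73925323, minus strand) had 70.1 and 66.4 CPM with pLOC-empty and 65.4 and 63.1 CPM with pLOC-*MALINC1*, a difference of -0.09 on the log2 scale (95% interval -0.19 to 0.02, adjusted p = 0.162) that did not pass the test.

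The target gene *HES1* (chr3:193853937-193856521, plus strand), whose promoter is printed above, had 26.9 and 27.4 CPM with pLOC-empty and 45.0 and 42.4 CPM with pLOC-*MALINC1*. This is a log2 fold change of 0.68 (SE 0.057, adjusted p = 9.20e-07), or 1.61-fold, with no overlap. *HEY1*, the other target, was scarce, with 35 and 20 reads with pLOC-empty and 38 and 12 reads with pLOC-*MALINC1*. Its levels of 1.21 and 0.886 CPM and of 1.06 and 0.453 CPM overlapped between the groups. A difference in *HEY1* did not pass the test (log2 fold change -0.52, 95% interval -1.40 to 0.35, adjusted p = 0.295).

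The second comparison put the same question to DCIS.COM cells. Here 4 of the 10 genes rose, namely *NOTCH1*, *NOTCH3*, *JAG1* and *HES1*, and 4 fell, namely *JAG2*, *DLL1*, *LFNG* and *NUMB*, where 16.4% of all genes were higher and 16.7% lower at the same threshold. Only *DLL1* was a DEG, 1 of 10 genes against 4.53% of all genes. The median log2 fold change was 0.228 over the 10 genes and 0.0089 over all genes.

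*DLL1* showed the largest change of the 10 genes in this line. It had 7.98 and 8.07 CPM in the pLOC-empty libraries, or 171 and 169 reads, and 0.379 and 0.148 CPM in the pLOC-*MALINC1* libraries, or 13 and 5 reads. On the log2 scale it fell by 4.69 (SE 0.36, adjusted p = 6.50e-07). The fitted size depends on the prior count, and it was -2.77 when a further 1 CPM was added on top of that prior. *DLL1* shares 7.96% of its 76-base stretches with *FAM120B*, a neighbouring gene, which had 15.8 and 15.4 CPM with pLOC-empty and 15.8 and 15.7 CPM with pLOC-*MALINC1* in this line. In MCF10A, where *FAM120B* had between 22.7 and 28.2 CPM, no library held more than 1 read of *DLL1*. *PECAM1*, the only endothelial marker of 3 with a row in the table, had 6.06 and 7.21 CPM in the DCIS.COM control libraries and 0.0874 and 0.177 CPM with pLOC-*MALINC1*, and its part in the *DLL1* result was not tested.

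The receptors changed less in DCIS.COM. *NOTCH1* had 139.9 and 142 CPM with pLOC-empty and 177 and 176 CPM with pLOC-*MALINC1* (log2 fold change 0.32, SE 0.036, adjusted p = 1.49e-05). *NOTCH3* went from 22.1 and 21.5 CPM to 31.1 CPM in both libraries, a log2 fold change of 0.51 (SE 0.092, adjusted p = 0.000661). For both genes the groups stood apart. *NOTCH2* had 170.3 and 175 CPM against 181 and 199 CPM, a log2 difference of 0.14 (95% interval 0.04 to 0.23, adjusted p = 0.0222) that did not pass the threshold. It passed without the first DCIS.COM pLOC-*MALINC1* library (0.20, adjusted p = 0.00401) and was 0.07 without the second, and its adjusted p ran from 0.00401 to 0.229 over the alternatives.

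Of the Jagged genes, *JAG1* rose from 213 and 209 CPM to 346 and 358 CPM, a log2 fold change of 0.74 (SE 0.032, adjusted p = 3.96e-09), or 1.67-fold. *JAG2* moved the other way, from 71.7 and 68.3 CPM to 62.7 and 56.5 CPM, and fell by 0.23 on the log2 scale (SE 0.059, adjusted p = 0.00625). The fall of *JAG2* was small and did not pass the test when either DCIS.COM pLOC-empty library, either MCF10A pLOC-*MALINC1* library or the second DCIS.COM pLOC-*MALINC1* library was left out, and its adjusted p over the alternatives ran from 0.00121 to 0.0821.

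*LFNG* fell in DCIS.COM from 21.5 and 19.95 CPM to 12.2 and 11.9 CPM, by 0.78 on the log2 scale (SE 0.084, adjusted p = 1.09e-05). *NUMB* went from 32.9 and 34.2 CPM to 29.8 and 28.3 CPM, a log2 fold change of -0.21 (SE 0.049, adjusted p = 0.00446). Groups did not overlap for either gene, but the *NUMB* call was lost without either DCIS.COM pLOC-empty library or without the second pLOC-*MALINC1* library (adjusted p from 0.00339 to 0.045 over its alternatives).

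*HES1* had 27.5 and 28.6 CPM with pLOC-empty and 35.7 and 38.8 CPM with pLOC-*MALINC1*, without overlap (log2 fold change 0.41, SE 0.057, adjusted p = 8.66e-05). *HEY1* was near the limit of detection, with 8 and 3 reads with pLOC-empty and 13 reads in both libraries with pLOC-*MALINC1* (log2 fold change 0.55, 95% interval -0.32 to 1.43, adjusted p = 0.286). The value was 1.08 without the first pLOC-empty library and 0.03 without the second.

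**Figure D2:**
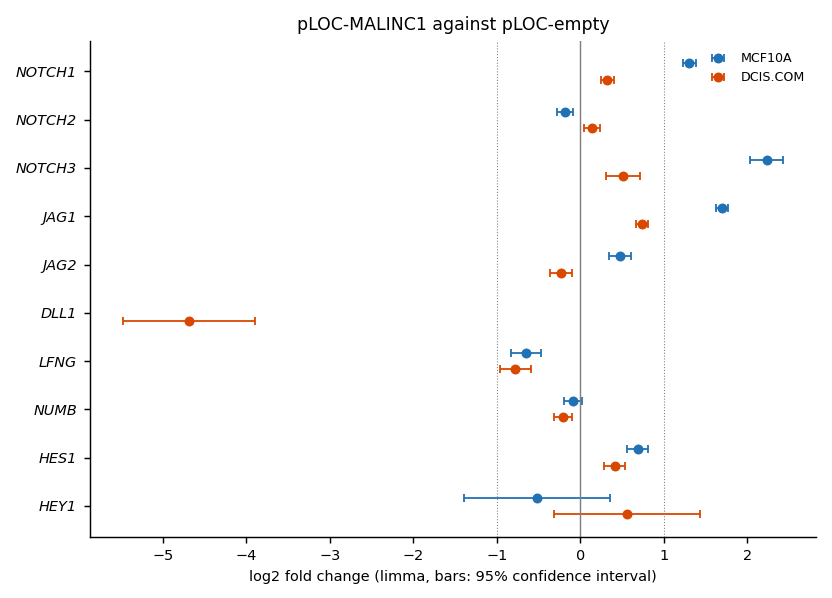
Log2 fold change of each Notch gene with pLOC-*MALINC1* relative to pLOC-empty (horizontal axis) in MCF10A (blue) and DCIS.COM (orange), with limma's 95% confidence interval as bars and dotted lines at 2-fold. *NOTCH1*, *NOTCH3* and *JAG1* lie beyond 2-fold in MCF10A only, *LFNG* lies to the left and *HES1* to the right in both lines, and *DLL1* is drawn for DCIS.COM alone because both MCF10A groups are at the floor.

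Both responses were then compared directly, as the log2 fold change in DCIS.COM minus that in MCF10A. The difference passed the test for 6 of the 10 genes, against 35.9% of all genes. With pLOC-*MALINC1*, *MALINC1* itself was higher in DCIS.COM than in MCF10A (log2 fold change 0.79, SE 0.19, adjusted p = 0.00187). The part of its level in these differences was not tested. *NOTCH1* responded less in DCIS.COM (difference -0.98, SE 0.051, adjusted p = 1.26e-08), as did *NOTCH3* (-1.72, SE 0.13, adjusted p = 4.68e-07) and *JAG1* (-0.96, SE 0.045, adjusted p = 5.99e-09). These 3 genes rose in both lines, and by more in MCF10A. *JAG2* rose in MCF10A and fell in DCIS.COM (difference -0.71, SE 0.083, adjusted p = 2.04e-05). *NOTCH2* differed in the opposite sense (0.32, SE 0.061, adjusted p = 0.00105). The difference of *DLL1* (-4.40, SE 0.52, adjusted p = 2.03e-05) sets a fall in DCIS.COM against a line without measurable *DLL1*. For *LFNG* and *NUMB* the responses could not be told apart (differences -0.13, 95% interval -0.39 to 0.13, and -0.12, 95% interval -0.27 to 0.03). *HES1* (-0.27, adjusted p = 0.0135) and *HEY1* (1.07, adjusted p = 0.136) also missed the threshold. The *HES1* difference passed it without the second DCIS.COM pLOC-*MALINC1* library (-0.33, adjusted p = 0.00988, range 0.00988 to 0.063 over the alternatives), and that of *HEY1* ran from 0.52 to 1.63 with the pLOC-*MALINC1* libraries of MCF10A left out in turn and was 1.60 and 0.55 without the first and the second DCIS.COM pLOC-empty library.

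The cell lines were next compared under the same vector. With pLOC-empty, 5 of the 10 genes were higher in DCIS.COM (*NOTCH1*, *NOTCH3*, *JAG1*, *JAG2* and *DLL1*) and 3 were lower (*NOTCH2*, *NUMB* and *HEY1*). Over all genes, 37.9% were higher and 36.0% were lower. DEGs were 7 of the 10 genes against 28.6% of all genes. In the control libraries the basal markers summed to between 21000 and 21200 CPM in MCF10A and between 4820 and 4950 CPM in DCIS.COM, although *TP63* (4.92 against 56.6 CPM) and *ITGA6* (1142 against 1823 CPM) of that list were higher in DCIS.COM, and the 5 luminal markers to between 1290 and 1380 CPM and between 3450 and 3500 CPM, and their part in the differences was not tested. *NOTCH1* was 5.81-fold higher in DCIS.COM (log2 fold change 2.54, SE 0.036, adjusted p = 1.20e-14), *NOTCH3* 5.62-fold (2.49, SE 0.092, adjusted p = 5.53e-11), *JAG1* 3.78-fold (1.92, SE 0.032, adjusted p = 5.01e-14) and *JAG2* 2.83-fold (1.499, SE 0.059, adjusted p = 9.72e-11). *DLL1* was at least 60.4-fold higher, measured against a floor of 3 reads in the shallower MCF10A library. *NUMB* was 2.03-fold lower (log2 fold change -1.02, SE 0.049, adjusted p = 7.37e-10) and *NOTCH2* was lower by less (-0.44, SE 0.043, adjusted p = 8.66e-07). *HEY1* had a log2 fold change of -1.84 (SE 0.40, adjusted p = 0.000979) on 35 and 20 against 8 and 3 reads. Its call was lost without the first MCF10A library (adjusted p = 0.0125) or the second DCIS.COM library (adjusted p = 0.0169), and over its alternatives the adjusted p ran from 5.32e-05 to 0.0169. *LFNG* (0.06, 95% interval -0.13 to 0.24) and *HES1* (0.04, 95% interval -0.08 to 0.17) did not pass the test.

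With pLOC-*MALINC1*, 5 genes were higher in DCIS.COM (*NOTCH1*, *NOTCH3*, *JAG1*, *JAG2* and *DLL1*) and 2 were lower (*NUMB* and *HES1*), where 35.7% and 37.2% of all genes were called in these directions. DEGs were 3 of the 10 genes, *NOTCH1*, *DLL1* and *NUMB*, against 26.6% of all genes. The log2 fold changes between the lines were 1.56 for *NOTCH1* (SE 0.036, adjusted p = 8.30e-13), 0.77 for *NOTCH3* (SE 0.092, adjusted p = 5.82e-06), 0.96 for *JAG1* (SE 0.032, adjusted p = 2.56e-11) and 0.79 for *JAG2* (SE 0.059, adjusted p = 5.99e-08). Each of these was smaller than with pLOC-empty, which is the difference tested in the preceding comparison read across the lines. *DLL1* was at least 2.32-fold higher in DCIS.COM, a limit that was 1.3-fold without the first DCIS.COM library and 3.34-fold without the second. *NUMB* was 2.21-fold lower (log2 fold change -1.14, SE 0.049, adjusted p = 2.99e-10). *HES1* was slightly lower (-0.23, SE 0.057, adjusted p = 0.00247), a call lost without the first pLOC-*MALINC1* library of MCF10A (adjusted p = 0.0315) or of DCIS.COM (adjusted p = 0.0362), and its adjusted p ran from 0.000417 to 0.0454 over the alternatives. *NOTCH2* (-0.12, adjusted p = 0.0193), *LFNG* (-0.07, adjusted p = 0.456) and *HEY1* (-0.77, adjusted p = 0.0963) did not pass. *NOTCH2* passed with voom on the recovered reads and without the second DCIS.COM library (-0.19, adjusted p = 0.00197), was -0.06 without the first, and ranged in adjusted p from 0.00197 to 0.989. *HEY1* passed under quantile normalization (adjusted p = 0.00508, range 0.00508 to 0.665) and was -0.21 without the first MCF10A library and -1.32 without the second.

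**Figure D3:**
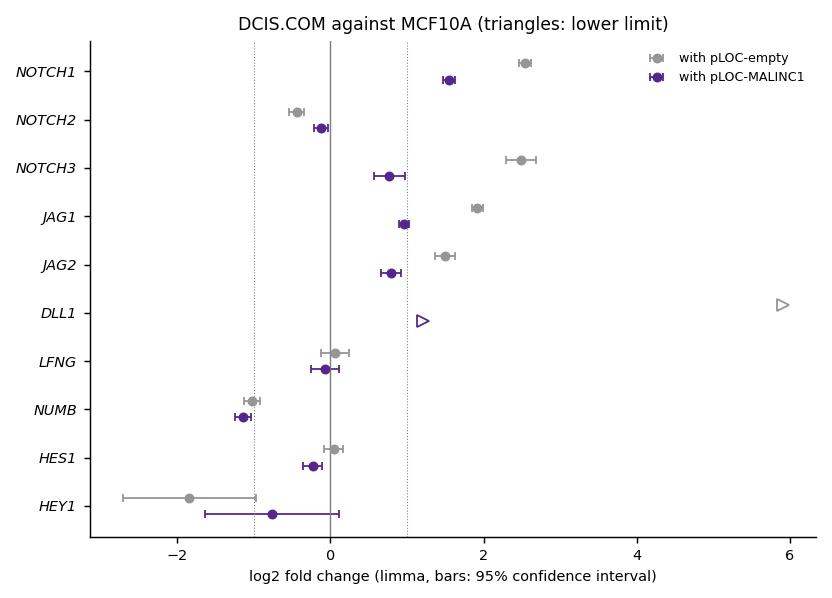
Log2 fold change of each Notch gene between DCIS.COM and MCF10A (horizontal axis) with pLOC-empty (grey) and with pLOC-*MALINC1* (purple), with limma's 95% confidence interval as bars and dotted lines at 2-fold. *NOTCH1*, *NOTCH3*, *JAG1* and *JAG2* lie further to the right with pLOC-empty than with pLOC-*MALINC1*, and the open triangles of *DLL1* mark lower limits of 60.4-fold and 2.32-fold.

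Levels were compared between genes as CPM per kb of the main annotated transcript. In MCF10A with pLOC-empty, *NOTCH2* was the most abundant receptor with 20.5 ± 0.456 CPM per kb (SD, n = 2), followed by *NOTCH1* with 2.53 ± 0.0126 and *NOTCH3* with 0.441 ± 0.0397. *NOTCH2* made up 87.3% and 87.4% of the summed receptor level in the libraries of that group and *NOTCH1* 10.9% and 10.7%. With pLOC-*MALINC1* the share of *NOTCH2* was 68.2% and 68.6% and that of *NOTCH1* 23.4% and 23.9%. In DCIS.COM with pLOC-empty, *NOTCH1* (14.8 ± 0.187 CPM per kb) and *NOTCH2* (15.1 ± 0.29 CPM per kb) were close, with *NOTCH2* slightly the higher in both libraries (46.5% and 46.9% of the receptor level against 45.6% in both), and with pLOC-*MALINC1* they had 18.4 ± 0.0602 and 16.6 ± 1.09 CPM per kb. Taken per kb of all annotated exons, *NOTCH1* was above *NOTCH2* in DCIS.COM with pLOC-empty (11.3 against 10.3), so their order there rests on the length used. *NOTCH3* was the least abundant receptor in every group. The summed receptor level was between 23.1 and 23.8 CPM per kb in MCF10A with pLOC-empty and between 37.9 and 39.4 in DCIS.COM with pLOC-*MALINC1*.

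Among the ligands, *JAG1* led in every group, with 9.38 ± 0.0579 and 30.4 ± 0.198 CPM per kb in MCF10A and 35.5 ± 0.403 and 59.3 ± 1.38 CPM per kb in DCIS.COM, with the control vector given first in each line. Its share of the summed ligand level was 69.5% and 67.7% in MCF10A with pLOC-empty and 83.8% and 83.4% with pLOC-*MALINC1*. In DCIS.COM the same shares were 71.1% and 71.6% and then 84.2% and 86.0%. *DLL1* reached 4.19% and 4.34% of the ligand level in DCIS.COM with pLOC-empty and at most 0.145% in any library of the other groups. Between the targets, *HES1* stood between 17.2 and 27.7 CPM per kb in the 4 groups and *HEY1* between 0.118 and 0.476.

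**Figure D4:**
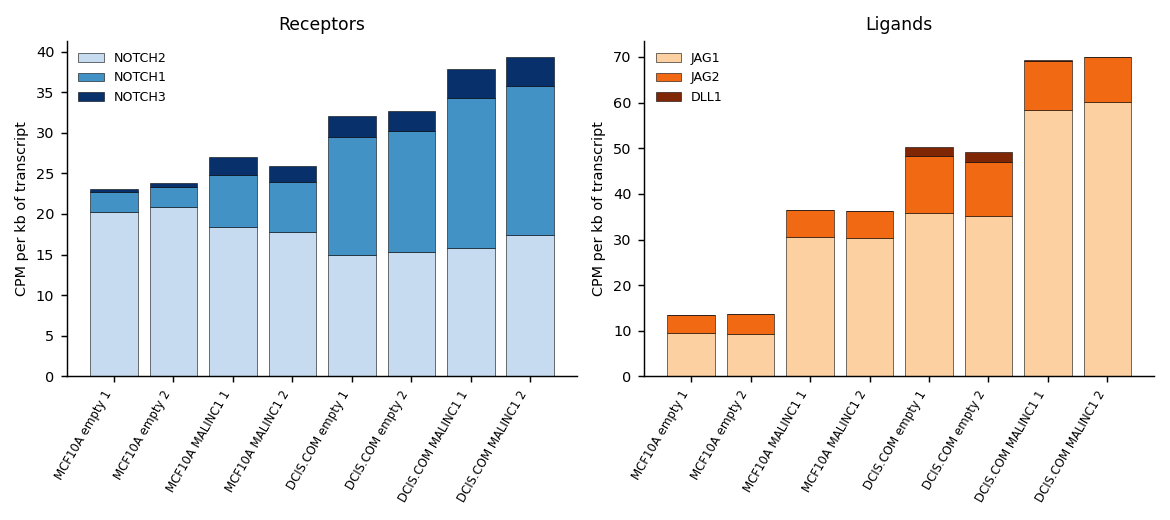
Summed level of the Notch receptors (left) and ligands (right) in each library, in CPM per kb of the main annotated transcript on linear axes that start at 0, with 1 bar per library and the genes stacked. *NOTCH2* fills most of the receptor bars of MCF10A while *NOTCH1* and *NOTCH2* are about level in DCIS.COM, and *JAG1* fills most of every ligand bar.

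*NOTCH2* shares 2.74% of its 76-base stretches with the *NOTCH2NL* copies and other genes that carry part of the sequence. *NOTCH2NLA*, the copy with a row in the table, had group means of 53.5 and 52.2 CPM in MCF10A and of 44.2 and 39.9 CPM in DCIS.COM, the control vector given first. Its log2 fold changes for the vector were -0.04 and -0.15 and did not pass the test, and reads that match both genes could have been assigned to either. *JAG1*, *JAG2* and *NUMB* share between 3.97% and 6.93% of such stretches with other annotated transcripts, and the strand setting of the counting is not given in the sources used here. *NOTCH1*, *NOTCH3*, *LFNG*, *HES1* and *HEY1* share none.

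A wider list of 48 other Notch genes was used to place these values, and 40 of them had a row in the table. In MCF10A 7 of the 40 rose with pLOC-*MALINC1*, 11 fell and 22 were not called, where 21.5% of all genes rose and 18.1% fell, and 5 were DEGs against 5.5% of all genes. In DCIS.COM 7 rose, 7 fell and 26 were not called, where 16.4% of all genes rose and 16.7% fell, and 3 were DEGs against 4.53% of all genes. Their median log2 fold change was -0.03 in MCF10A and 0.06 in DCIS.COM. Between the lines, 17 were higher in DCIS.COM and 14 lower with pLOC-empty, where 37.9% and 36.0% of all genes were called in these directions. With pLOC-*MALINC1* 21 were higher and 16 lower, against 35.7% and 37.2% of all genes.

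Of the remaining ligands, *DNER*, a non-canonical Notch ligand, had 154 and 158 CPM in MCF10A with pLOC-empty and 102 and 106 CPM with pLOC-*MALINC1*. In DCIS.COM it went the other way, from 18.1 and 17.8 CPM to 44.2 and 45.2 CPM (log2 fold change 1.31, adjusted p = 1.68e-10), and the difference between the lines passed the test (1.89, adjusted p = 1.71e-10). *DLK2*, a Delta-like homologue known as a Notch inhibitor, rose in MCF10A from 2.59 and 2.26 CPM to 5.82 and 6.46 CPM (log2 fold change 1.32, adjusted p = 0.000116) and fell in DCIS.COM from 2.94 and 3.20 CPM to 1.25 and 0.828 CPM (log2 fold change -1.52, adjusted p = 4.31e-05). Thus both genes changed in opposite directions in the lines. *NEURL1B*, a ubiquitin ligase of the Neuralized family that acts on the endocytosis of Notch ligands, fell in both, by 1.41 in MCF10A (60.4 and 54.6 CPM against 21.1 and 22.1 CPM) and by 1.08 in DCIS.COM (6.90 and 6.83 CPM against 3.35 and 3.07 CPM) on the log2 scale, with adjusted p of 5.68e-08 and 6.75e-07. It was also lower in DCIS.COM than in MCF10A (log2 fold change -3.05 with pLOC-empty and -2.72 with pLOC-*MALINC1*).

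Of the 4 further HES family and feedback genes measured, *HES2* had the largest rise of the wider list in MCF10A. This basic helix-loop-helix repressor went from 4.76 and 5.80 CPM to 43.1 and 39.9 CPM (log2 fold change 2.96, SE 0.11, adjusted p = 9.99e-10). In DCIS.COM it fell from 9.23 and 9.50 CPM to 5.62 and 4.85 CPM (log2 fold change -0.83, adjusted p = 7.12e-05), and the difference between the lines was -3.80 (adjusted p = 2.15e-09). *NRARP*, a feedback inhibitor induced by Notch, and *MFNG*, a further Fringe enzyme, were the remaining DEGs of MCF10A and were singled out after their values were seen, since both were below 5 CPM. *NRARP* went from 5 reads in both libraries to 30 and 21 reads in MCF10A (log2 fold change 1.73, adjusted p = 2.03e-05) and had 3.73 and 4.15 CPM against 3.64 and 2.96 CPM in DCIS.COM, where it did not pass the test. *MFNG* went from 8 and 6 reads to 30 and 25 reads in MCF10A (log2 fold change 1.49, adjusted p = 6.56e-05). Between the lines, *NRARP* was higher in DCIS.COM with pLOC-empty (log2 fold change 3.91, adjusted p = 1.71e-09) and with pLOC-*MALINC1* (1.92, adjusted p = 2.08e-06). *MFNG* was higher there as well (2.83, adjusted p = 3.91e-08, and 1.83, adjusted p = 3.07e-06). For both genes the MCF10A side of these differences rests on few reads.

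The 9 cleavage genes encode the ADAM proteases, furin and the subunits of gamma-secretase. In each line 1 of them rose with pLOC-*MALINC1* and 2 fell, all by less than 2-fold, beside 21.5% of all genes that rose and 18.1% that fell in MCF10A and 16.4% and 16.7% in DCIS.COM. Of the 5 genes of the nuclear complex, *RBPJ* was the 1 gene called for the vector, in MCF10A, where it fell by 0.29 on the log2 scale (adjusted p = 0.00204). Between the lines *APH1B*, a gamma-secretase subunit, was lower in DCIS.COM with pLOC-empty (log2 fold change -1.30). The Deltex gene *DTX1*, a regulator of Notch, was higher in DCIS.COM (2.50 with pLOC-empty and 2.66 with pLOC-*MALINC1*), as was *LNX1*, a ubiquitin ligase of NUMB (1.14 and 1.36). *DTX2* and *DTX4* were DEGs between the lines with pLOC-*MALINC1* (log2 fold changes -1.33 and -1.48). Both had also fallen with the vector in DCIS.COM, by 0.95 and 0.84 on the log2 scale, without reaching 2-fold.

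**Figure D5:**
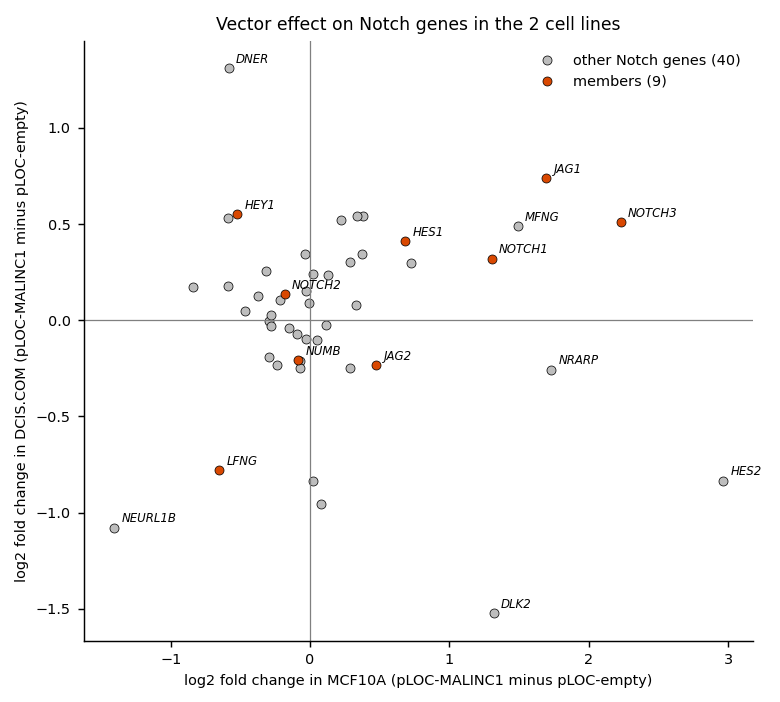
Log2 fold change of pLOC-*MALINC1* over the control vector in MCF10A (horizontal axis) and DCIS.COM (vertical axis) for 9 of the 10 Notch genes described (orange, *DLL1* left out because MCF10A is at the floor) and for the 40 other Notch genes with a row (grey, named beyond 2-fold in either line). *JAG1*, *NOTCH1*, *NOTCH3* and *HES1* lie in the upper right, *NEURL1B* and *LFNG* in the lower left, and *HES2*, *DLK2* and *DNER* where the signs differ.

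For the 3 genes with the widest range of group means, the genes with the most similar log2 CPM over the 8 libraries were listed from 11464 genes with 5 CPM or more in at least 2 libraries. These correlations describe 4 groups of 2 libraries and carry no test, since the libraries share vector and line. *DLL1* was closest to *TM4SF18* and *SULF1* (Pearson r = 0.997 for both) and to *SLC6A6* (0.994). *TM4SF18* had no reads in any MCF10A library, 10.8 and 9.50 CPM in DCIS.COM with pLOC-empty and 0.408 and 0.207 CPM with pLOC-*MALINC1*. *SULF1*, which encodes an extracellular heparan sulfate sulfatase, likewise had no reads in MCF10A and went from 5.88 and 6.11 CPM to 0.233 and 0.148 CPM in DCIS.COM. Both genes passed the limit of 5 CPM only through DCIS.COM with pLOC-empty, the group where *DLL1* is high. *SLC6A6* had between 20.55 and 23.83 CPM in the MCF10A libraries. In DCIS.COM it went from 65.4 and 61.7 CPM to 33.8 and 31.3 CPM, so a high correlation does not mean a change of like size. *NOTCH3* was closest to *PHLDA2* (0.998), *NT5DC3* (0.997) and *CDC42SE1* (0.995), and *NOTCH1* to the integrin gene *ITGA3*, the hyaluronan synthase gene *HAS3* and *FRMD4B* (0.999 each). As many as 98 genes had a correlation over 0.99 with *NOTCH1*, against 17 with *NOTCH3* and 4 with *DLL1*.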

How the data were processed

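RNA-seq libraries were made with a strand-marking kit (ScriptSeq v2) and sequenced as 76 nt paired-end reads. According to the methods, the authors used Rsubread for alignment to hg19, featureCounts for counting on UCSC gene models and edgeR for normalization. The deposited table holds log2 CPM, in which a prior count of 2 was added in proportion to library size. The strand setting and tool versions are not given in the sources used here. Whole reads were recovered for 100% of the values (within 0.05 of a read). Library totals lay between 20604377 and 37550457 reads on genes.

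These log2 CPM entered linear models in limma 3.58.1 under R 4.3.3 (lmFit, contrasts, eBayes with a trend), as 4 group means over 8 libraries, with Benjamini-Hochberg adjustment over all 13842 genes and a threshold of 0.01. All of them passed a filter of 0.5 CPM in 2 libraries. DEGs also changed over 2-fold. Intervals are 95% confidence intervals from the fit. The steps were tested on simulated data. Coordinates are those of GENCODE on GRCh37, and promoters those of RefSeq on GRCh38.p14.

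The 10 genes, the wider Notch list and the marker lists were chosen with earlier results of these data known. Of the wider list, DEGs with 5 CPM or more in the higher group are named, apart from 1 gene that is not reported here, and the 3 most similar genes are given for the 3 genes of widest range. Same-numbered libraries did not deviate together (correlations of -0.15 to 0.11), so no pairing was used. Alternatives changed the pseudocount, filter, scaling, model and libraries. Summaries and plots used Python 3.11.15, pandas 2.3.3 and matplotlib 3.10.9. No per-sample column was left unused.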

Additional observations from a re-analysis of the deposited data

Results flagged for a closer look

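The effect of pLOC-*MALINC1* differed between the cell lines for 6 of the 10 Notch genes by the test of the difference itself (limma, adjusted p below 0.01), given here as the log2 fold change in DCIS.COM minus that in MCF10A. At that threshold 35.9% of all genes were called for this difference. The differences were -0.984 for *NOTCH1*, -1.72 for *NOTCH3*, -0.958 for *JAG1* and -0.709 for *JAG2*. For *NOTCH2* the difference was 0.316, and its call was lost when eBayes was run without a trend (adjusted p = 0.026, with a range of 0.000263 to 0.026 over its alternatives). For *DLL1* it was -4.4, against MCF10A groups at the floor, and its size depends on the prior count. No group had the 4 libraries that a test for outlying samples would need.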

How the results depend on the processing

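The called effects of the vector on *NOTCH1*, *NOTCH3*, *JAG1* and *HES1* kept their direction and call in both lines under all 17 alternatives. So did those on *JAG2* in MCF10A and on *DLL1* and *LFNG* in DCIS.COM. Not all alternatives could change these results. The fit without a filter equals the main one, because all genes passed the filter. The stricter filter, the fit without a trend, the replicate block and the groups fitted alone could alter only the adjusted p. The log2 fold change was fixed in them, and also where a library of the other line was left out. The small changes of *NOTCH2* in MCF10A and of *JAG2* and *NUMB* in DCIS.COM lost their calls without a trend in eBayes and when the groups compared were fitted on their own, and *LFNG* in MCF10A lost its call under the latter (adjusted p = 0.0102, range 1.66e-06 to 0.0102). *HES1* between the lines with pLOC-*MALINC1* lost its call under quantile normalization (log2 fold change -0.13), median ratio scaling (-0.17) and without a trend, and *DLL1* there lost it with a pseudocount of 1 CPM (0.31, adjusted p = 0.0209, range 2.52e-05 to 0.0209). The uncalled log2 fold change of *HEY1* in MCF10A ran from -1.08 to 0.0312 when libraries were left out, turning positive without the second pLOC-*MALINC1* library, and that of *LFNG* between the lines with pLOC-empty from -0.0355 to 0.15, turning negative without the second MCF10A library. Quantile normalization gave 5 DEGs among the 10 genes between the lines with pLOC-*MALINC1*, against 3. Among all 13842 genes it gave 3511 DEGs in that comparison, against 3686. Of the wider Notch list, 10 were called in MCF10A when its groups were fitted alone, against 18. Over all genes, a pseudocount of 1 CPM lowered the DEGs from 761 to 404 in MCF10A and from 627 to 354 in DCIS.COM. At an adjusted p below 0.01, fits of the groups compared alone called 3101 and 2559 genes, against 5485 and 4592, and without a trend 2915 were called in DCIS.COM. Other scalings moved the median log2 fold change of all genes by less than 0.1. The cause of these changes was not tested. The replicate numbers did not pair the libraries (correlations of -0.15 to 0.11), and with the number as a block 7 of the 10 genes were called in MCF10A and 8 in DCIS.COM, as without it, and no call changed. Of all 13842 genes, the fit with the block called 5327 in MCF10A and 4429 in DCIS.COM. With either library of a group left out, the remaining one is assumed to vary like the other groups. Few reads were counted for *HEY1* in all groups, between 3 and 38 per library. *DLL1* had at most 1 read in each MCF10A library, where 3 reads were worth at most 0.133 CPM. The part of depth in this was not tested.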
